A study of Homo sapiens with 18 samples.

Results

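The nuclear genes of oxidative phosphorylation were read as a group across the 18 RNA-seq libraries of HAP1 cells. Members were chosen by name, as nuclear genes with a symbol that starts with NDUFA, NDUFB, NDUFC, NDUFS, NDUFV, UQCR, COX4, COX5, COX6, COX7, COX8 or ATP5, together with SDHA, SDHB, SDHC and SDHD. Of 20329 genes in the count tables, 100 matched, and 95 of these were members with a role in the pathway. The other 5 matches were pseudogenes, readthrough genes and a divergent transcript. Complex I had 45 members, complex II 4, complex III 8, complex IV 19 and complex V 19. By role these were 20 core subunits, 59 accessory subunits, 7 forms known from particular tissues or conditions, and 9 assembly factors or inhibitors. UQCRHL and the genes encoded in mitochondrial DNA were not analysed here.

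Oxidative phosphorylation takes place in the inner membrane of mitochondria. Complex I passes electrons from NADH and complex II from succinate to ubiquinone, complex III hands them to cytochrome c, and complex IV passes them to oxygen. Complexes I, III and IV pump protons, and complex V, the ATP synthase, makes ATP as protons flow back through a rotating ring of c subunits. Most subunits are encoded in the nucleus and imported, and their genes are known to be transcribed broadly and in part under the factors NRF1 and GABP.

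HAP1 is a near-haploid human line that descends from a leukaemia line, grows attached and carries impaired p53. The 6 groups of 3 libraries were control A (parental HAP1), *ΔWAPL* clone 3.3, *ΔSCC4*, *ΔWAPL/ΔSCC4*, control B (parental HAP1 again) and *ΔWAPL* clone 1.14. The *ΔWAPL* lines carry a blasticidin cassette in WAPL, the cohesin release factor. The *ΔSCC4* line carries a puromycin cassette in SCC4 (listed as MAU2), a subunit of the cohesin loader, and the double knockout was made by disrupting SCC4 in *ΔWAPL* cells, which the labels give as clone 3.3. Each knockout line is a single clone, so the genotype and the clone cannot be told apart except where both *ΔWAPL* clones are read together. Nothing states that replicates came from separate cultures, and p-values therefore measure the spread between these libraries, which may be technical.

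Reads on genes per library ranged from 10007646 to 20711127, with a median of 16177867.5. WAPL was lower in each *ΔWAPL* line, at 38.0 to 50.2 CPM (counts scaled to library size with TMM factors) against 68.0 to 131 in the groups with intact WAPL. MAU2 was at 0.509 to 1.04 CPM in *ΔSCC4* and *ΔWAPL/ΔSCC4* cells and at 52.1 to 72.7 CPM elsewhere. Of the blood cell markers, SPI1 and MPO had no read in any library and PTPRC had a read in 5, GATA1 in 2 and CD33 in 14 of 18 libraries, with at most 7 reads in a library. EPCAM and COL1A1 had reads in all 18.

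Regulatory sequence was read for the members around which the results below turn. RefSeq gives a promoter window for 77 of the 95 members (GRCh38.p14, first listed start of each gene), and the 250 bases before the start were searched on both strands. The core of the NRF1 motif, GCATGCGC, was in 12 of 77 members (15.6%) and in 2.81% of all 27305 genes with a window. The GABP core CCGGAAGT was in 10 members (13.0%) against 3.64% of all, the YY1 core AAGATGGC in 1 (1.30%) against 1.37%, and TATAAA in 7 (9.09%) against 11.1%. These matches describe letters in a window, not occupied sites. The genes with a window were not limited to expressed genes or matched to the members in base composition, so the shares are not compared like for like. The NRF1 core stood before ATP5F1C, ATP5MC2, ATP5ME, ATP5PF, COX5B, COX6A1, NDUFA6, NDUFB4, NDUFS6, NDUFS7, SDHB and SDHD. Shown here are the windows of ATP5MC2, which was lowest in *ΔWAPL/ΔSCC4* cells, and of NDUFS4, the other member past the threshold in the interaction of both deletions, and of COX6B1 and COX6B2, an isoform pair that differed widely in level. Capitals mark the NRF1 core, and in the 3 other windows none of the NRF1, GABP and YY1 cores was found. The positions are chr12:53676084-53676333 (minus strand), chr5:53560389-53560638 (plus strand), chr19:35648073-35648322 (plus strand) and chr19:55354720-55354969 (minus strand) of GRCh38, in that order, and G and C made up 62.4%, 36.8%, 57.6% and 72.8% of their bases.
ATP5MC2: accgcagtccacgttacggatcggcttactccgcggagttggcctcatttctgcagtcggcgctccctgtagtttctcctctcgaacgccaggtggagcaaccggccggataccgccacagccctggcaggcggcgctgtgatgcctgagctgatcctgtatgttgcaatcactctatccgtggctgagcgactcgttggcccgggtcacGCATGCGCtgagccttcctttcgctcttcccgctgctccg
NDUFS4: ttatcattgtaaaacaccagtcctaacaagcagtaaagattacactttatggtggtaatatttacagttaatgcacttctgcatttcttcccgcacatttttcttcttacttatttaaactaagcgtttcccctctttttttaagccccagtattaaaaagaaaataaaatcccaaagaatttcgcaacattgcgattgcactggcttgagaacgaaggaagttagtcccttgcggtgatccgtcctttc
COX6B1: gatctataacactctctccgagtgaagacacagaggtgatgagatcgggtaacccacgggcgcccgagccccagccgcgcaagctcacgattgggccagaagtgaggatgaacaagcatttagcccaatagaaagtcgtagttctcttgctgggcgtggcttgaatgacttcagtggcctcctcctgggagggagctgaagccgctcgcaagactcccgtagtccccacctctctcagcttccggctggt
COX6B2: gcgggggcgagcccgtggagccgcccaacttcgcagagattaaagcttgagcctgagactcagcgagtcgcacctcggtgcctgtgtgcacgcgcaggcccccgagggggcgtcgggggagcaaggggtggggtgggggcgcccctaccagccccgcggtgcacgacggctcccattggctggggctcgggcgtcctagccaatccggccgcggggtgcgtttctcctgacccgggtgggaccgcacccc

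As a group, the members were highly expressed. They took 1.28% of all CPM, and 88 of 95 averaged at least 1 CPM and 86 at least 10 CPM over the 18 libraries. The same 88 passed the filter on low counts and were tested in each comparison. Complex V held 41.6% of the members' CPM, complex I 26.4%, complex IV 16.7%, complex III 10.6% and complex II 4.62%. ATP5F1A and ATP5F1B, the alpha and the catalytic beta subunit of ATP synthase, made up 53.3% of complex V. Across the 6 groups, the ratio of the highest to the lowest group mean had a median of 1.31 over the 88 members and was under 1.5 for 75 of them. The same ratio over all genes is not given here.

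Levels between genes were compared as CPM per kb of the annotated canonical transcript, which may be longer than the transcript these cells use. ATP5F1B was the highest member of complex V with a mean of 972 CPM per kb, and ATP5F1D, the delta subunit of the rotor stalk, the lowest with 52.9 among those averaging at least 1 CPM. In complex I the accessory subunit NDUFA1 was highest with 336 and NDUFA9 lowest among those averaging at least 1 CPM with 3.16 CPM per kb, for the latter over an annotated transcript of 8356 bases. In complex II, SDHB, the iron-sulphur subunit, was highest with 154 and SDHD, a membrane anchor, lowest with 61.4. UQCRH, the hinge protein of complex III, reached 456 and the ubiquinone-binding subunit UQCRB 18.9, over 8459 annotated bases. COX4I1 led complex IV with 400 CPM per kb. Among the assembly factors and inhibitors, ATP5IF1, which inhibits ATP hydrolysis by complex V, was highest with 193 and NDUFAF5, a complex I assembly factor, lowest with 4.65.

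Where complex IV has paralogous forms, the common form was expressed and the other was low or had no read. COX4I2, COX6A2, COX7A1 and COX7B2, the hypoxia, muscle or testis forms of their families, had 0 reads in 18 libraries, which allows up to 0.0104 CPM at 3 reads of the pooled total, for counting error only. COX8C, a testis form, had 38 reads in 15 libraries. Their partners COX4I1, COX6A1, COX7A2, COX7B and COX8A averaged 400, 127, 251, 111 and 291 CPM per kb, and COX7A2L, which acts in supercomplex assembly, 54.1. COX6B2, the testis form, had 4 to 52 reads in each library and a mean of 0.855 CPM per kb against 334 for COX6B1. NDUFA4L2, the hypoxia-induced paralog, averaged 1.26 CPM per kb against 96.2 for NDUFA4, a complex IV subunit first assigned to complex I. The 3 genes for the c ring of ATP synthase, which encode the same mature protein, were all expressed, ATP5MC2 with 442, ATP5MC1 with 158 and ATP5MC3 with 124 CPM per kb. The remaining members under 1 CPM were ATP5MGL with 6 reads and NDUFA7 with 28, and the latter lies on the same strand as an overlapping gene to which 0 reads were given, so that its reads may have been set aside as ambiguous.

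**Figure D1:**
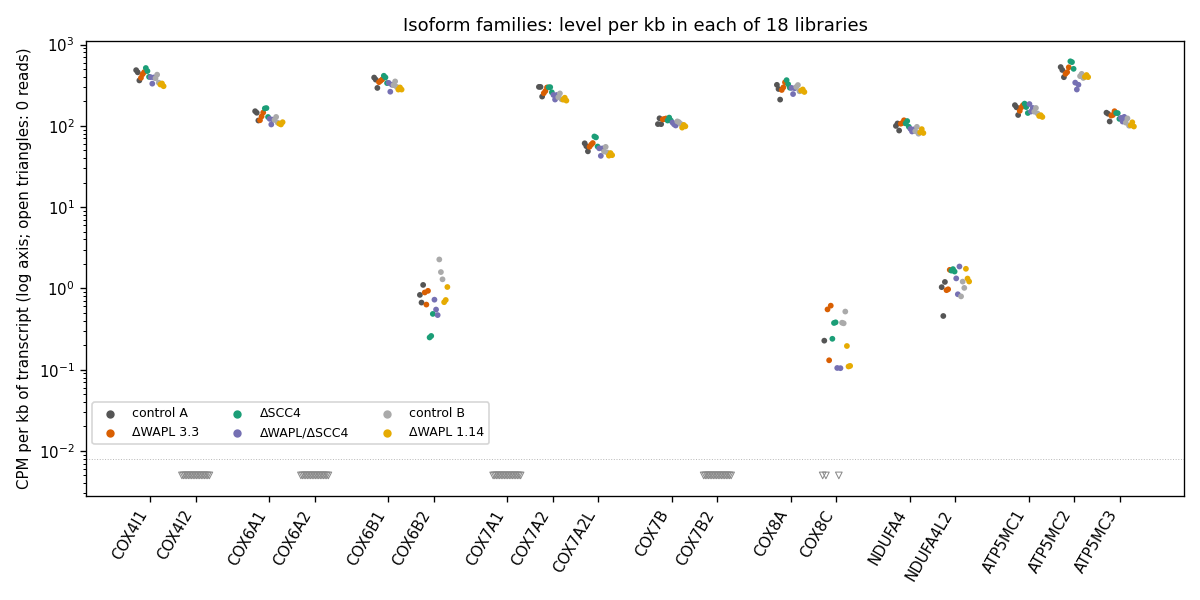
Level of the isoform families in CPM per kb of annotated transcript (log axis), 1 point a library, coloured by group; open triangles at the foot are libraries with 0 reads. The common forms lie highest, such as COX4I1 with a mean of 400, COX6B2, COX8C and NDUFA4L2 near or below 1, and COX4I2, COX6A2, COX7A1 and COX7B2 have no read in 18 libraries.

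The members moved together from library to library. The correlation of a member with the mean of the 88 over the 18 libraries had a median of 0.839, where the libraries share depth and base composition effects and no test is attached. The mean of the 88 on the log2 CPM scale, centred over 18 libraries, was 0.04 ± 0.13 (SD, n = 3) in control A, 0.12 ± 0.06 in clone 3.3, 0.11 ± 0.09 in *ΔSCC4*, -0.02 ± 0.09 in *ΔWAPL/ΔSCC4*, -0.08 ± 0.09 in control B and -0.17 ± 0.05 in clone 1.14. Single libraries set part of this. Replicate 3 of control A was the lowest of its group for 77 of 88 members, replicate 2 of *ΔWAPL/ΔSCC4* for 75, replicate 3 of control B for 76 and replicate 3 of *ΔSCC4* for 70. The mean of control A was 0.14, 0.10 and -0.11 in its 3 libraries. For 13 of 88 members (14.8%) the 3 libraries of clone 1.14 lay below the 15 others, where this held for 4.35% of all genes. Among them were ATP5F1A, ATP5MC1, COX5A, NDUFAB1, NDUFV1 and NDUFV2. No other group stood clear of the rest in 1 direction for more than 2 members. NDUFB3 and NDUFB6 were highest in clone 3.3 (2.27%, and 1.48% of all genes), and NDUFC1 was highest in *ΔSCC4* (1.14%, and 6.89% of all genes). In control B NDUFS4 was lowest, where 0.670% of all genes were, and COX6B2 highest, where 1.97% were.

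A property of the libraries moved with this mean. Members have short transcripts, with a median of 763 bases against 3429.5 over all genes tested, and a median GC content of 47.0% against 48.5%. The slope of the log2 level of all genes on transcript length was -0.093, -0.071 and 0.058 per doubling of length in the 3 libraries of control A, 0.094, 0.053 and 0.093 in clone 1.14, and -0.055, -0.038 and -0.082 in clone 3.3. Every library with a mean below 0 had a positive slope, that is, lower levels of short genes in general, and so had replicate 3 of *ΔSCC4*, with a mean of 0.01. The part of this slope in the results on the members was not tested beyond a fit with an offset for GC content and length, whose counts are given where they change a result.

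**Figure D2:**
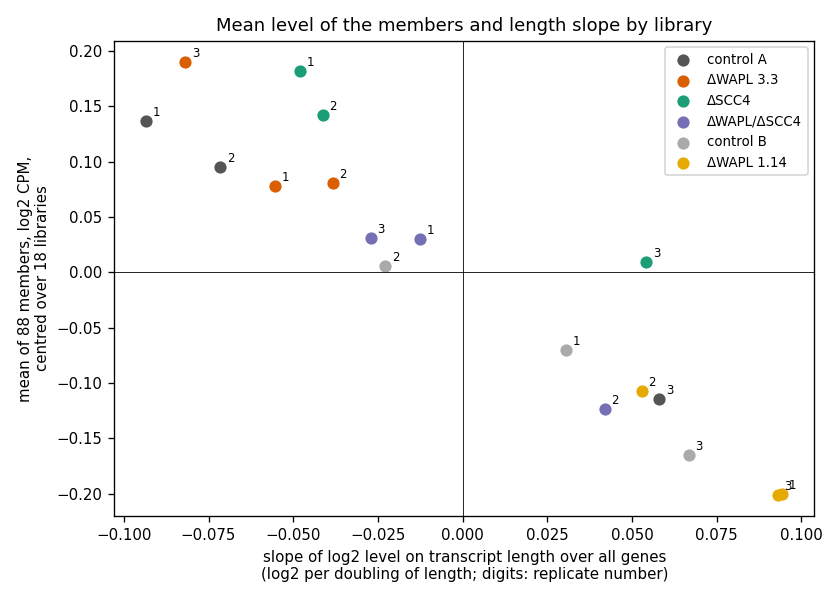
Mean log2 CPM of the 88 tested members, centred over 18 libraries, against the slope of the log2 level of all genes on transcript length, 1 point a library with its replicate number. All libraries with a mean below 0 have positive slopes, among them replicate 3 of control A at -0.11 and the 3 libraries of clone 1.14 at -0.20, -0.11 and -0.20.

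**Figure D3:**
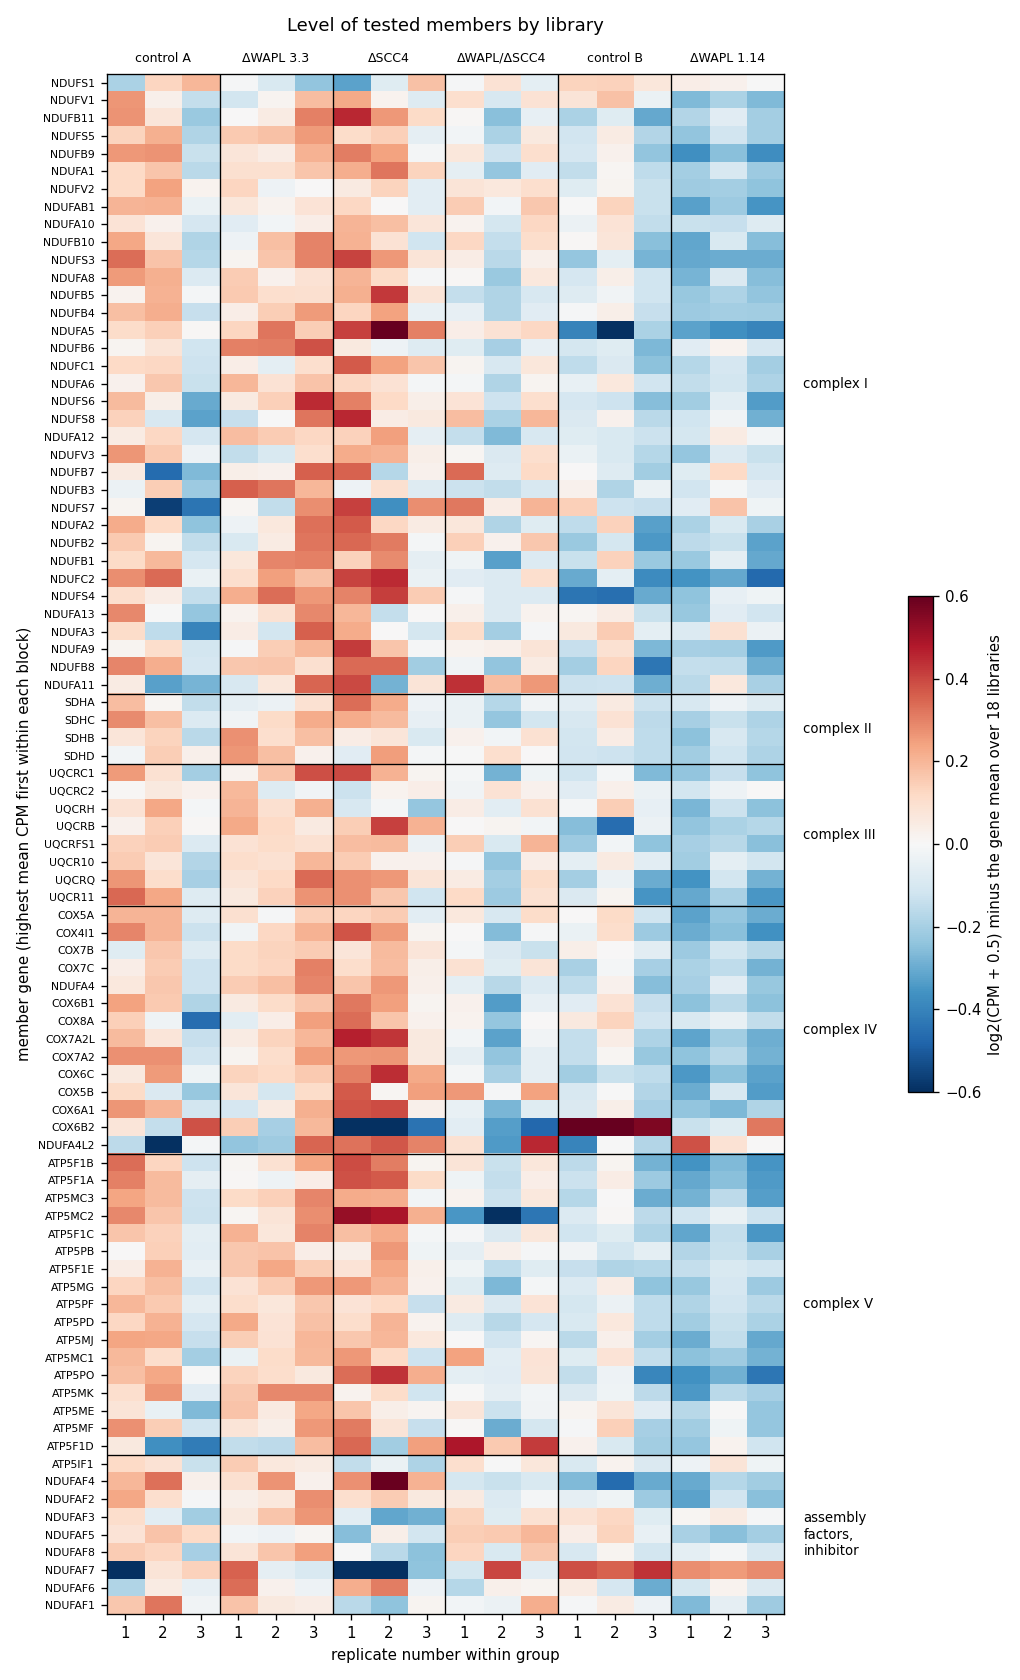
Heat map of 87 of the 88 tested members (rows, by complex) in the 18 libraries (columns, by group), as log2(CPM + 0.5) minus the mean of the gene over the libraries; colours end at 0.6 in each direction. Whole columns shift together, such as replicate 3 of control A, while ATP5MC2 stands apart in *ΔWAPL/ΔSCC4* and COX6B2 in control B and *ΔSCC4*.

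The comparisons began with whether WAPL loss changed the members. In clone 3.3 against control A none of 88 passed an adjusted p of 0.05 in edgeR's quasi-likelihood test, where 8.07% of all genes did, and DESeq2 called 0 as well. At an unadjusted p under 0.05 there were 2, among them NDUFB6 with a log2 change of 0.32, and the share of all genes at that limit is not given here. The median log2 fold change of the members was 0.06 against 0.00 for all genes, and it was -0.02, 0.10 and 0.09 without replicates 3, 1 and 2 of control A and 0.00 without replicate 3 of clone 3.3 or with an offset for GC content and length. Without replicate 1 of control A 2 members rose, and without its replicate 3 1 fell.

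In clone 1.14 against control B, 7 of 88 members (7.95%) fell and none rose, where 20.1% of all genes were called and 11.4% fell. Among them were COX6B2, NDUFV1, NDUFAB1, COX5A, NDUFAF5 and UQCRH. The median over the members was -0.11, and it was 0.00 with the offset for GC content and length, where 10 members rose and 9 fell and 29.9% of all genes were called. Without replicate 2 of control B the median was -0.05, and without its replicate 3 it was -0.17. The count was 0 without replicate 1 of control B or of clone 1.14, 1 without replicate 2 or 3 of clone 1.14, and 24 without replicate 3 of control B. For no fit without 1 library is the share of all genes given here, so such counts do not single out the members.

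The falls held subunits of complexes I, III and IV. Of complex I, NDUFV1, the flavin subunit that oxidizes NADH, had 265, 284 and 245 CPM in control B and 209, 220 and 209 in clone 1.14. The groups did not overlap, and the log2 difference was -0.32 (SE 0.07, adjusted p = 0.0164). SE is the standard error from the edgeR test, and it may be too small at low counts. NDUFAB1, which serves as acyl carrier protein of mitochondria and as accessory subunit, had 128, 141 and 117 CPM in control B and 102, 110 and 100 in clone 1.14. Its libraries also stood clear of each other, with a log2 change of -0.31 (SE 0.08, adjusted p = 0.0379). COX5A of complex IV fell by 0.29 on the log2 scale, NDUFAF5 by 0.27 and UQCRH by 0.25, each with an adjusted p between 0.028 and 0.0495. With the offset for GC content and length the values were smaller for NDUFV1, NDUFAB1, COX5A and UQCRH, at -0.17, -0.13, -0.16 and -0.11, and larger for NDUFAF5, at -0.45. UQCRH was past the threshold in 2 of 8 other settings and NDUFAF5 in 4 of 8.

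Over both clones against their controls, 4 of 88 members were called, 2 up and 2 down, where 17.7% of all genes were. With the offset for GC content and length 11 rose and 5 fell, at 28.3% of all genes. NDUFS4, an accessory subunit of complex I (chromosome 5, plus strand, 52856463 to 52979168 of GRCh37), had 32.2, 30.9 and 27.1 CPM in control A and 34.9, 37.9 and 35.9 in clone 3.3. In set B it had 21.9, 21.8 and 24.2 CPM in control B and 25.2, 29.0 and 29.4 in clone 1.14. Each clone lay above its own controls, while clone 1.14 lay within or below the range of control A. The log2 fold change was 0.28 (SE 0.07, adjusted p = 0.0128). The NDUFS4 call was lost with the offset for GC content and length (0.22, adjusted p = 0.0675), with the replicate block (0.28, adjusted p = 0.0542) and with both (0.22, adjusted p = 0.133). NDUFB6, an accessory subunit in the membrane arm, rose by 0.22 (adjusted p = 0.047) and NDUFAF5 fell by 0.20 (adjusted p = 0.0402). The NDUFB6 call held in 3 of 8 other settings and in 1 of the 12 fits without 1 library, the NDUFAF5 call in 5 of 8 and 5 of 12. The total was 8 without replicate 3 of control A and 2 without replicate 2 of clone 3.3, replicate 1 of control B or any replicate of clone 1.14.

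The clones were also compared with each other. Tested as the fold change in clone 3.3 minus that in clone 1.14, no member passed in edgeR, where 2.65% of all genes did, and none in DESeq2. In edgeR 5 had an unadjusted p under 0.05, a limit for which the share of all genes is not given here. The difference was above 0 for 81 of 88 members, with a median of 0.18 against 0.00 for all genes. The shift was not particular to the members. Of the other lists described below, mitochondrial ribosomal proteins had a median of 0.19 and further assembly factors 0.17. Glycolysis had 0.16, the citric acid cycle 0.13 and the regulators -0.06. The members' median was 0.05 with the offset for GC content and length, 54 members then lying above 0, and 0.10 without replicate 3 of control A. Both control groups are parental HAP1, and between them 0 members were called in edgeR, where 0.640% of all genes were, and 1 in DESeq2. At an unadjusted p under 0.05 in edgeR there were 9, and the share of all genes at that limit is not given here. In control B against control A 77 of 88 members lay below 0, with a median of -0.15. There glycolysis had -0.15, further assembly factors -0.12, mitochondrial ribosomal proteins -0.11, the citric acid cycle -0.09 and the regulators 0.05. The members' median was -0.10, -0.08 and -0.25 without replicates 1, 2 and 3 of control A and -0.10 without replicate 3 of control B. Clone and set cannot be told apart in these comparisons.

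**Figure D4:**
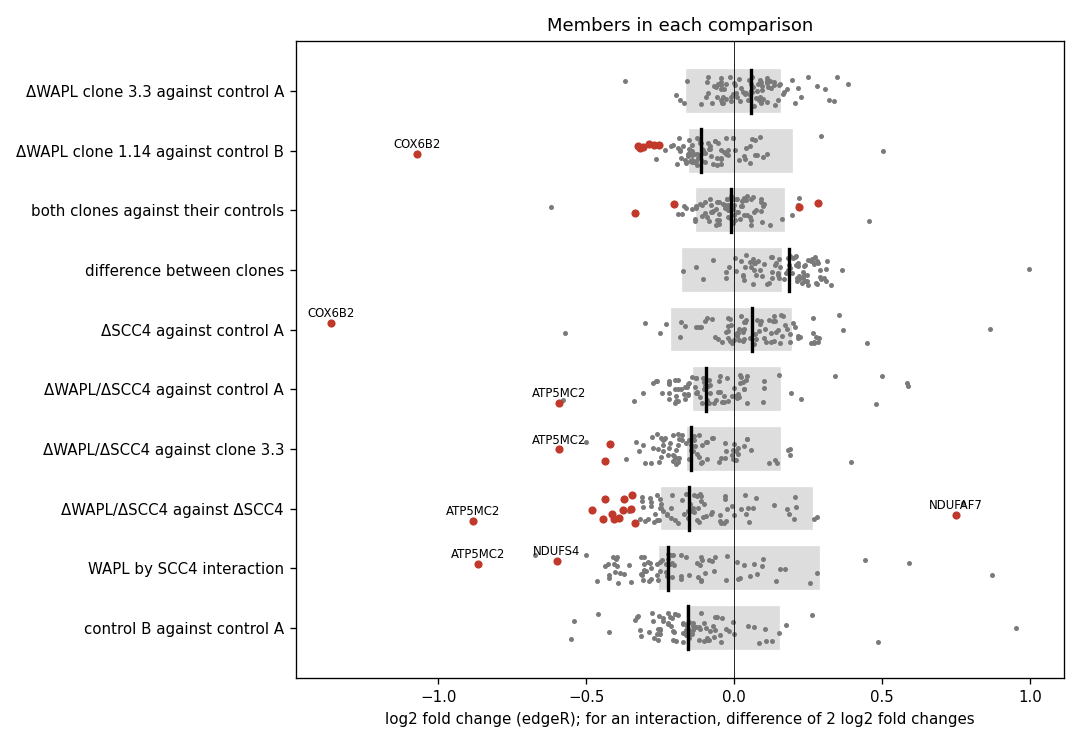
Log2 fold changes of the 88 tested members in 10 comparisons (edgeR), 1 point a gene. Red points passed an adjusted p of 0.05, black bars are the members' median, and grey boxes span the quartiles of all genes tested. The members lie right of 0 as a group in the difference between clones, with a median of 0.18, and left of 0 in the WAPL by SCC4 interaction, with a median of -0.22.

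SCC4 loss was compared with control A. Without pairing, 1 of 88 members (1.14%) was called, a fall of COX6B2, where 9.49% of all genes were. No label pairs these libraries. Those with the same number deviated together, weakly for replicate 2 (correlations of 0.676, 0.115 and 0.615 for replicates 1, 2 and 3). A block on the number thus rests on these same data, and its p-values may be too small. With this block 29 members (33.0%) were called, 25 up and 4 down, at 46.0% of all genes. With block and offset together 49 were called (55.7%), 44 up and 5 down, at 46.5% of all genes, so that the members' share lay below that of all genes in the former fit and above it in the latter. With the offset for GC content and length and no block 5 rose and 2 fell, at 25.1% of all genes. In the unblocked fit the count was 4 without replicate 1 of control A, 2 without replicate 3 of *ΔSCC4* and 0 without each of the other 4 libraries. The members' median log2 fold change in the unblocked fit was 0.06, with 62 of 88 above 0. It was 0.11, 0.10 and -0.03 without replicates 1, 2 and 3 of control A, the last with 37 above 0 and 51 below. Without replicates 1 and 3 of *ΔSCC4* it was 0.02 and 0.13, so the direction of the group depended on single libraries.

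With the block, the members that rose in *ΔSCC4* cells came from every complex and the rises were small. The largest were NDUFA4L2 with a log2 change of 0.84 (adjusted p = 0.0469), NDUFS7, the core subunit with the last iron-sulphur cluster before quinone, with 0.44 (adjusted p = 0.0026), ATP5F1D with 0.37 (adjusted p = 0.0071) and NDUFA5 with 0.35 (adjusted p = 0.000937). ATP5MC2 rose by 0.29 (adjusted p = 0.000575) and NDUFS4 by 0.27 (adjusted p = 0.0097). The falls were COX6B2 with -1.39, the assembly factors NDUFAF7 with -0.55 and NDUFAF5 with -0.25, and UQCRH with -0.23. SDHA, the flavin subunit of complex II, was called here with 0.15 (adjusted p = 0.0284), and in the unblocked fit it had the same value and an adjusted p of 0.579.

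COX6B2 differed most between groups of all members tested. Its position in GRCh37 is chromosome 19, 55860674 to 55866087, minus strand. It had 3.55, 2.49 and 2.03 CPM in control B, above the 15 other libraries, and 1.06, 1.13 and 1.63 in clone 1.14. Control A had 1.30, 1.05 and 1.73 CPM, clone 3.3 1.40, 0.990 and 1.46, *ΔSCC4* 0.390, 0.407 and 0.760, and *ΔWAPL/ΔSCC4* 1.14, 0.860 and 0.735. The log2 fold change was -1.07 (SE 0.28, adjusted p = 0.0337) in clone 1.14 and -1.36 (SE 0.37, adjusted p = 0.0412) in *ΔSCC4*, the latter with an adjusted p of 0.107 in DESeq2. It was past the threshold in 3 of 6 fits without 1 library for clone 1.14 and in 2 of 6 for *ΔSCC4*. In clone 3.3 it was -0.09 (adjusted p = 0.926), and the difference between the clones had an adjusted p of 0.331. COX6B2 overlaps another gene on its strand, to which 1 read was given in 18 libraries. Of 19 genes tested within 250 kb, 4 fell and 0 rose in clone 1.14, where 11.4% of all genes fell and 20.1% were called. In *ΔSCC4* 2 rose and 2 fell, where 9.49% of all genes were called. Whether the region differs from other regions was not tested.

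The double knockout was compared with control A, with clone 3.3 and with *ΔSCC4*. These comparisons share libraries with each other and with those above. Against control A 1 of 88 members (1.14%) was called, a fall of ATP5MC2, where 7.95% of all genes were, and with the offset 3 rose and 4 fell, at 17.6%. Against clone 3.3 3 fell (3.41%), where 10.6% were, namely ATP5MC2, NDUFB6 and NDUFB3, and with the offset 1 rose and 4 fell, at 20.4%. Against *ΔSCC4* 13 were called (14.8%), 1 up and 12 down, where 27.3% were called and 13.6% fell. With the offset 43 were called (48.9%), 5 up and 38 down, at 45.6% of all genes. Against control A the count was 5 without replicate 1 of control A, 2 without its replicate 3, and 0 without its replicate 2 or replicate 1 or 3 of the double knockout, and without replicate 2 of the double knockout the 1 call was a rise.

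Of the members called in the double knockout, ATP5MC2 had the largest fall in each of these 3 comparisons. It encodes subunit c of the proton-driven ring of ATP synthase and spans 54026510 to 54071192 of chromosome 12 in GRCh37 (minus strand), with the NRF1 core before its start in the sequence above. It had 334, 308 and 251 CPM in control A, 276, 289 and 332 in clone 3.3, 393, 384 and 318 in *ΔSCC4*, and 215, 177 and 202 in *ΔWAPL/ΔSCC4*. In set B it had 258, 275 and 245 CPM in control B and 253, 267 and 251 in clone 1.14. The 3 libraries of the double knockout lay below the 15 others, which ran from 245 to 393 CPM, and ATP5MC2 was the only member of 88 (1.14%) for which this held, against 1.76% of all genes.

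The fall of ATP5MC2 was 1.51-fold against control A (log2 fold change -0.59, SE 0.14, adjusted p = 0.023), 1.51-fold against clone 3.3 (-0.59, SE 0.12, adjusted p = 0.0025) and 1.84-fold against *ΔSCC4* (-0.88, SE 0.13, adjusted p = 5.50e-05). It was past the threshold in each of the 8 other settings for each comparison. Without 1 library it stayed past in all 6 fits against clone 3.3 and all 6 against *ΔSCC4*, but in 2 of 6 against control A, where it had an adjusted p of 0.136 without replicate 2 of control A and of 0.0765, 0.0784 and 0.0757 without replicates 1, 2 and 3 of the double knockout. In clone 3.3, clone 1.14 and unblocked *ΔSCC4* its log2 fold changes were -0.01, -0.02 and 0.28, with adjusted p of 0.984, 0.824 and 0.270. In bulk RNA, a change in every cell and a larger change in some of the cells cannot be told apart.

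The other c ring genes had smaller differences in the same comparisons. ATP5MC1 had 116, 109 and 87.8 CPM in control A and 120, 96.9 and 107 in *ΔWAPL/ΔSCC4*, with a log2 change of 0.04 (adjusted p = 0.926), and these groups overlapped. ATP5MC3 had 375, 364 and 293 CPM in control A and 324, 292 and 334 in *ΔWAPL/ΔSCC4*, with -0.12 (adjusted p = 0.718), and again the groups overlapped. In clone 3.3 ATP5MC3 had 346, 352 and 391 CPM, each above the double knockout, though it was not called. In *ΔSCC4* it had 372, 370 and 315 CPM, which overlapped the double knockout. Of 7 genes tested within 250 kb of ATP5MC2, none was called against control A, with log2 fold changes from -0.29 to 0.13, 1 rose against clone 3.3, and 1 rose and 2 fell against *ΔSCC4*. Of all genes, 7.95%, 10.6% and 27.3% were called in these comparisons, in that order.

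**Figure D5:**
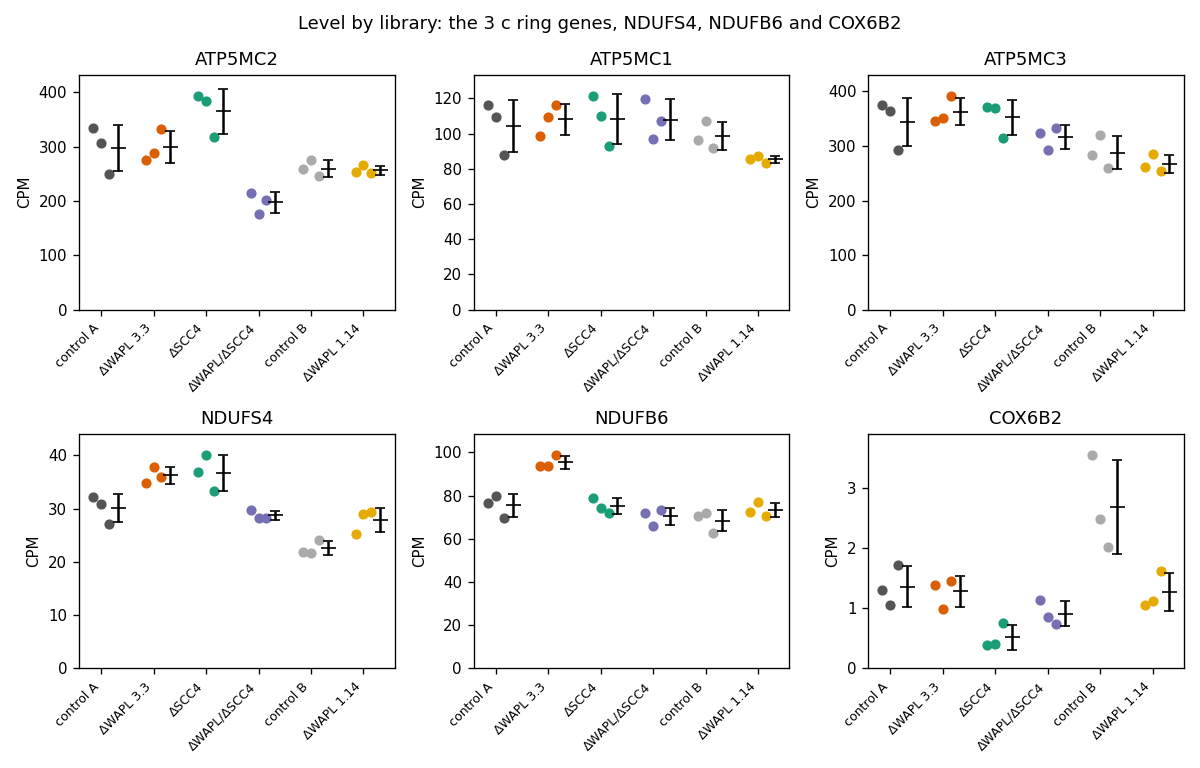
CPM in each library (points) with the group mean and SD (n = 3) for the c ring genes ATP5MC2, ATP5MC1 and ATP5MC3, the complex I genes NDUFS4 and NDUFB6, and COX6B2. ATP5MC2 is lowest in *ΔWAPL/ΔSCC4*, at 177 to 215 CPM, NDUFB6 is highest in clone 3.3, and COX6B2 is highest in control B, at 2.03 to 3.55 CPM.

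The falls against clone 3.3 also held 2 accessory subunits of the membrane arm of complex I. NDUFB6 had 93.5, 93.7 and 98.8 CPM in clone 3.3 and 72.0, 66.0 and 73.2 in *ΔWAPL/ΔSCC4*, and NDUFB3 had 73.2, 71.2 and 65.4 CPM in clone 3.3 and 52.0, 51.4 and 53.3 in *ΔWAPL/ΔSCC4*. For both genes clone 3.3 was above the 15 other libraries. The log2 fold changes were -0.44 (SE 0.11, adjusted p = 0.0178) and -0.42 (SE 0.11, adjusted p = 0.0249). Without 1 library the NDUFB6 call held in 3 of 6 fits and the NDUFB3 call in 1 of 6, that without replicate 3 of clone 3.3. With the offset for GC content and length both calls were lost, at -0.27 (adjusted p = 0.0827) and -0.20 (adjusted p = 0.0897). The count of 3 became 1 without replicate 2 of clone 3.3 or replicate 1 of the double knockout.

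Against *ΔSCC4* the falls were spread over complexes I, IV and V. Among them after ATP5MC2 were NDUFAF4, an assembly factor of complex I, with a log2 change of -0.48, COX7A2L with -0.44, COX6C with -0.41, COX6A1 with -0.41, NDUFB5 with -0.39, NDUFB11 with -0.38, NDUFA5 with -0.37 and ATP5PO, the peripheral stalk protein OSCP, with -0.35. Falls beyond the 10 the naming rule takes, named after their values were seen, were NDUFA1 and ATP5F1A with -0.34 each, and none of the 4 members of complex II or the 8 of complex III was called. COX6A1 and ATP5PO each overlap another gene on their strand, to which 0 reads were given, as 19 of the 95 members overlap some gene on their own strand. Overlaps with genes on the opposite strand, such as that of NDUFV1 with NDUFV1-DT, are not in this count. NDUFAF7, a complex I assembly factor, was the single rise with 0.75 (SE 0.19, adjusted p = 0.0080), from 10.8, 10.8 and 17.3 CPM in *ΔSCC4* to 19.1, 27.2 and 19.6 in *ΔWAPL/ΔSCC4*. Its groups did not overlap, and control A had 13.3, 21.6 and 22.6 CPM, across both. The count of 13 became 31 without replicate 3 of *ΔSCC4*, 6 without its replicate 1 and 1 without its replicate 2. It was 2, 3 and 6 without replicates 1, 2 and 3 of the double knockout. The share of all genes in these fits is not given.

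The design also asks whether the effect of SCC4 loss depended on WAPL. Tested as the effect of SCC4 loss in clone 3.3 minus its effect in control A, 2 of 88 members (2.27%) were called, where 11.3% of all genes were. Both were negative. With all 18 libraries in the fit 11 were called (12.5%), 1 up and 10 down, at 15.5% of all genes, and with the offset for GC content and length 18 (20.5%), all negative, at 28.8%. ATP5MC2 had a difference of log2 fold changes of -0.87 (SE 0.19, adjusted p = 0.0065), with SCC4 loss at 0.28 in control cells and -0.59 in *ΔWAPL* cells, and it passed in all 12 fits without 1 library. NDUFS4 had -0.60 (SE 0.16, adjusted p = 0.0209), with 36.9, 40.1 and 33.4 CPM in *ΔSCC4* and 29.7, 28.3 and 28.2 in *ΔWAPL/ΔSCC4*, and it passed in 7 of 12 such fits. For NDUFS4 the libraries of clone 3.3 and of *ΔSCC4* were all above control A, and the double knockout lay within the range of control A. The median over members was -0.22 against 0.00 for all genes and 71 of 88 lay below 0, with medians from -0.25 to -0.21 in the other settings and from -0.29 to -0.13 without 1 library, the last without replicate 3 of control A. The count was 4 without replicate 3 of *ΔSCC4*, and 1 without replicate 3 of control A, replicate 2 of clone 3.3, replicate 2 of *ΔSCC4* or replicate 2 or 3 of the double knockout.

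Complex II, whose 4 subunits also act in the citric acid cycle, varied little. So did most members, with a median ratio of 1.31 between the highest and lowest group means. Group means of SDHA differed by at most 1.20-fold, those of SDHC 1.24-fold, of SDHD 1.26-fold and of SDHB 1.28-fold. No member of complex II was called in the 10 unblocked comparisons. The largest values were those of SDHB with 0.27 in the difference between clones (adjusted p = 0.557), of SDHC, a membrane anchor, with a log2 change of -0.26 in the double knockout against control A (adjusted p = 0.333), and of SDHA with -0.26 against *ΔSCC4* (adjusted p = 0.127). SDHB and SDHD had log2 fold changes of 0.15 and 0.09 in clone 3.3 and of -0.11 and -0.05 in clone 1.14. Over all 88 members, 22 (25%) were called in at least 1 of the 10 comparisons and 66 in none, where 43.4% of the genes tested in each comparison were called in at least 1.

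Other genes of the pathway were read from lists. Of 42 tested genes for cytochrome c, CYC1 and assembly factors not covered by the naming rule, 1 (2.38%) rose in clone 3.3, where 8.07% of all genes were called, and 5 (11.9%) fell in clone 1.14, where 11.4% of all genes fell. TMEM126B, a complex I assembly factor, rose in clone 3.3 with a log2 change of 0.48 (adjusted p = 0.0499) and fell by 0.51 in the double knockout against clone 3.3 (adjusted p = 0.0066). COX17, a copper chaperone of complex IV, fell by 0.35 in clone 1.14 (adjusted p = 0.0107). COX18, an insertase for a complex IV subunit, fell by 0.61 in *ΔSCC4* without the block (adjusted p = 0.0412) and by 0.60 with it (adjusted p = 0.000255), and had an interaction of 0.79 (adjusted p = 0.0151). In the double knockout against control A 0 of these 42 were called in edgeR.

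Of 13 tested regulators of respiratory genes, TFAM, which packages and transcribes mitochondrial DNA, rose in both *ΔWAPL* clones. Its log2 fold change was 0.53 (adjusted p = 0.0386) in clone 3.3 and 0.64 (adjusted p = 0.0131) in clone 1.14, and it fell by 0.49 in the double knockout against clone 3.3 (adjusted p = 0.0163). TFB1M, a methyltransferase for mitochondrial ribosomal RNA, fell by 0.71 in clone 1.14 (adjusted p = 0.0037). ESRRA, a nuclear receptor that regulates mitochondrial genes, fell by 0.34 there (adjusted p = 0.0296). In the double knockout against control A 0 of the 13 were called in edgeR. In *ΔSCC4* 0 were called without the block and 3 with it, all down (23.1%, against 46.0% of all genes), among them TFAM with -0.26 (adjusted p = 0.0027).

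Neighbouring pathways were read the same way. Of 13 genes of the citric acid cycle, 1 rose and 3 fell in clone 1.14 (30.8%, against 20.1% of all genes), the falls including OGDH and CS with log2 fold changes of -0.32 and -0.29. Of 17 glycolytic genes 4 (23.5%) fell in clone 1.14, where 11.4% of all genes fell, led by ALDOC, an aldolase, with -1.19 (adjusted p = 0.0024), which also fell in *ΔSCC4* with -0.93 without the block (adjusted p = 0.0309) and -0.94 with it (adjusted p = 0.000781). Of 75 tested genes for mitochondrial ribosomal proteins, 7 (9.33%) fell in clone 1.14, against 11.4% of all genes, with a median of -0.14 over the list and -0.11 over the members. In the double knockout against control A, MRPL12 alone rose, with 0.92 (adjusted p = 0.0153). With the block in *ΔSCC4*, where 46.0% of all genes were called, 3 of the 42 assembly factors and related genes rose and 13 fell, 2 of 13 citric acid cycle genes rose and 2 fell, 1 of 17 glycolytic genes rose and 8 fell, and 1 of 75 mitochondrial ribosomal genes rose and 13 fell.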

How the data were processed

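RNA-seq read counts per gene of 18 libraries were used. Per the labels and methods, the authors aligned reads to hg19 with TopHat2 (2.0.9 in the submitters' processing notes, another release in the methods), counted them with HTSeq and deposited raw counts. The HTSeq version and annotation are not given in the sources used here. Reads off genes were 20.3 to 22.6% of each library, mostly with more than 1 alignment, and stayed out of library sizes and tests. Symbols came from GENCODE v44 lifted to GRCh37 for 96.6% of IDs.

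The members and lists were chosen with earlier results of these data known. Counts were scaled by TMM, filtered with edgeR's filterByExpr, and tested over all genes by quasi-likelihood in edgeR (release 4.0.16 under R 4.3.3), using only the groups of each comparison and Benjamini-Hochberg adjustment at 0.05. The scripts were tested on simulated data. DESeq2 1.42.0, other filters and scalings, all 18 libraries in 1 fit, an offset for GC content and length, the replicate number as a block, and the omission of each library were alternatives. Named were, per comparison, up to 10 rises and 10 falls of largest size past the threshold, complex II, the isoform families, the extremes of each complex, and at most 3 called genes per other list. Libraries of *ΔSCC4* and control A with the same replicate number deviated together (correlations of 0.676, 0.115 and 0.615 for replicates 1, 2 and 3), a pairing that comes from the data and not from the labels. Between other groups compared, at least 1 number had a correlation of 0.1 or less, a limit close to the 0.115 above. For clone 1.14 and control B the correlations were also above 0, at 0.049, 0.319 and 0.196. The choice of groups to pair is therefore uncertain. Some genes that these rules would name are not reported here.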

Additional observations from a re-analysis of the deposited data

Results flagged for a closer look

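ATP5MC2 and NDUFS4 stood out because the effect of SCC4 loss differed between control and *ΔWAPL* cells in the test of that difference. The difference of log2 fold changes was -0.87 for ATP5MC2 and -0.60 for NDUFS4 (edgeR, adjusted p = 0.0065 and 0.0209), with each group of 3 libraries from a single clone.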

How the results depend on the processing

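For the 31 calls on single members, 469 values under alternatives had 0 changes of direction, 318 stayed past the threshold and 151 did not. These calls were picked for passing in the main fit, and the alternatives refit mostly the same libraries. A kept direction is therefore no independent support. The counts of called members moved more, and the cause was not tested. The share of all genes called moved too, such as from 20.1% to 29.9% with the offset in clone 1.14. For several of the settings below that share is not given, so the counts do not single out the members. In clone 3.3 (0) the count was 2 with all 18 libraries, 1 with the GC content and length offset and 1 with the other matched genes. The call added there was NDUFV1-DT. It was also past the threshold in clone 1.14, over both clones, in the double knockout against clone 3.3 and in the interaction. In clone 1.14 (7) it was 5 in DESeq2, 5 with no filter, 6 with at least 10 counts in every library and 2 with all 18. With the block it was 10, with the offset 19 and with both 25. Over both clones (4) it was 2 with no filter, 3 with at least 10 counts in every library, 5 with all 18, 1 with the block, 16 with the offset and 8 with both. In *ΔSCC4* (1) it was 0 in DESeq2, 0 with at least 10 counts in every library, 3 with all 18, 29 with the block, 7 with the offset and 49 with both. In the double knockout against control A (1) it was 2 in DESeq2, 2 with no filter, 2 with all 18, 2 with the block, 7 with the offset and 2 with both. Against clone 3.3 (3) it was 7 with all 18, 5 with the block, 5 with the offset and 4 with both. Against *ΔSCC4* (13) it was 12 with no filter, 19 with all 18, 6 with the block, 43 with the offset and 27 with both. For the interaction (2) it was 3 in DESeq2, 11 with all 18, 18 with the offset and 15 with both. Between controls (0) it was 1 in DESeq2, 3 with all 18 and 2 with the offset.

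Without 1 library, the counts ranged from 0 to 2 in clone 3.3, 0 to 24 in clone 1.14, 2 to 8 over both clones, 0 to 4 in *ΔSCC4*, 0 to 5, 1 to 4 and 1 to 31 in the double knockout against control A, clone 3.3 and *ΔSCC4*, and 1 to 4 for the interaction. They were 0 throughout for the difference between clones and between controls. The share of all genes called in these fits is not given here. The replicate number was read as a pairing for *ΔSCC4* and control A alone, from the deviations in these same data. No label states a pairing for any groups. Each group has 3 libraries, *ΔSCC4* and the double knockout are 1 clone each, and members under 1 CPM were not tested.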

Other observations

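Of the 5 other genes that the naming rule matched, NDUFV1-DT, transcribed divergently from NDUFV1, was called in edgeR in both *ΔWAPL* clones. Its log2 fold change was -0.64 in clone 3.3 (adjusted p = 0.0183) and -1.25 in clone 1.14 (adjusted p = 0.000743). In the double knockout it was 0.57 against clone 3.3 (adjusted p = 0.0136) and -0.05 against control A (adjusted p = 0.905), and the interaction was 0.81 (adjusted p = 0.0111). NDUFV1 itself had -0.32 in clone 1.14. In clone 3.3 it was not called, with 232, 254 and 286 CPM against 302, 257 and 227 in control A, and these groups overlapped. Whether the authors' counting used strand is not given in the sources used here, so reads of the neighbours may not be separable.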
